A study of Mus musculus with 4 samples.

Results

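Galectins are small lectins that bind beta-galactosides, and they are the proteins that read the branched N-glycans made by Mgat5. RNA of the galectin genes was compared between Mgat5 knockout and control MC38 cells, a mouse colon adenocarcinoma line. The members were the 8 galectin genes Lgals1, Lgals2, Lgals3, Lgals4, Lgals7, Lgals8, Lgals9 and Lgals12, with Lgals3bp, which encodes galectin-3 binding protein. They were chosen by gene symbol, all 9 of 9 were measured by 1 probe set each, and they stand beside 19505 named genes on the array.

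The series holds 4 Clariom S mouse arrays, 1 per sample. The knockout group was clone 1 and clone 2 of MC38 KO T5, both derived by CRISPR-Cas9 against Mgat5. The control group was MC38 MOCK, which carries an empty vector, and MC38 WT, which was left unedited. No treatment or time point separates the samples. The titles set these groups, because the cell label names the knockout on all 4 samples, controls included. Both knockout arrays come from clones and neither control is labelled as one, so cloning and loss of Mgat5 cannot be told apart. Nothing in the labels says that samples came from separate cultures, so p-values measure only the spread between these arrays.

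N-acetylglucosaminyltransferase V, the product of Mgat5, makes the beta-1,6 branch of N-glycans in the Golgi. That branch is a favoured site for chains of N-acetyllactosamine, the disaccharide that galectins bind. Galectin-3 and its relatives crosslink such glycoproteins into a lattice at the cell surface, and inside the cell they mark damaged endosomes and lysosomes. Galectins fall into prototype forms with a single carbohydrate-binding domain (Lgals1, Lgals2, Lgals7), the chimera form Lgals3 with a self-associating tail, and tandem-repeat forms with a pair of such domains (Lgals4, Lgals8, Lgals9, Lgals12). Galectin-3 binding protein is no galectin but a secreted, heavily glycosylated ligand of galectin-3 with a scavenger receptor cysteine-rich domain.

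Mgat5 itself had a log2 signal of 7.46 in clone 1 and 7.57 in clone 2, against 8.19 in MOCK and 8.27 in WT, so both clones lay below both controls (-0.71 log2 units, limma adjusted p = 0.631, and -1.11 after quantile normalization). The position of its probes against the edited site is not known here, so this level checks the labels only in part. Both clones lay below both controls for 11.7% of all probe sets as deposited and for 21.3% after quantile normalization. The arrays differed in scale: among 22206 probe sets, the 99th percentile reached 15.8 in both clones, against 15.9 in MOCK and 14.7 in WT. The median difference over all probe sets, knockout minus control, was 0.18 log2 units as deposited and -0.02 after quantile normalization, which gives all arrays 1 distribution. The signals of the galectins that were not dim are therefore given both ways, and other genes as deposited. The array's 5222 negative control features had medians of 5.16 and 5.20 in the clones, and of 5.22 in MOCK and 5.12 in WT. Their 75th percentiles were 6.42 and 6.49 in the clones, and 6.56 in MOCK and 6.29 in WT. A signal below the median is called dim here, and one between the 2 levels near background. Of the 22206 probe sets, 8995 were dim on every array, and shares of all probe sets include them. Among probe sets above the median of mean signal, the median difference as deposited was 0.36 log2 units. Shares of all probe sets can therefore be too low a background for bright genes.

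The labelled tissue of origin was not borne out by epithelial markers. Of 10 markers of colon epithelium, among them Epcam, Cdh1, Krt8, Krt20 and Vil1, 8 were dim on every array and 0 were above the 75th percentile of the negative controls on all 4. Epcam, an epithelial adhesion molecule, had signals of 3.65 and 3.42 in the clones, and of 3.29 in MOCK and 3.13 in WT. Of 7 macrophage markers, a cell type known for high galectin-3, 5 were dim on every array and 0 were above that percentile on all 4. Their linear signals summed to 128 in clone 1 and 169 in clone 2, against 169 in MOCK and 154 in WT. The same level was passed on all arrays by 0 of 7 markers of T and NK cells, 0 of 5 of endothelium, 0 of 4 of adipocytes, 0 of 5 of keratinocytes and 1 of 5 of fibroblasts. That 1 was Dcn, which encodes the matrix proteoglycan decorin, at 8.94 in clone 1 and 11.18 in clone 2, against 12.95 in MOCK and 13.61 in WT. The part of these markers in the galectin results was not tested.

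Among the 9 genes, 5 gave clear signals on all 4 arrays: Lgals1, Lgals3, Lgals3bp, Lgals8 and Lgals9. Lgals7 was near background in clone 1 and above the 75th percentile of the negative controls on the other arrays, and Lgals2, Lgals4 and Lgals12 were dim everywhere. No member passed the limma test of knockout against control, a count of 0 of 9 beside 0.0405% of all probe sets (0.036% higher, 0.0045% lower), and 0 of 9 after quantile normalization beside 0.0045%. At an unadjusted p under 0.05, limma found 2 of 9 higher, Lgals3 and Lgals8, beside 7.54% of all probe sets, and 0 of 9 lower beside 1.22%. After quantile normalization 1 of 9 was under that unadjusted limma p, Lgals7, which was lower, beside 8.92% of all probe sets in either direction. The mean difference was above 0 for 7 of 9 members, beside 65.1% of all probe sets, and for 6 of 9 after quantile normalization, beside 48.3%. The members' median difference was 0.47 log2 units as deposited and 0.46 after quantile normalization, a value set by the dim Lgals12. It was 0.25 without WT, 0.11 with signals floored at the median of the negative controls, and 0.99 when probe sets with low mean signals were dropped. Both clones stood above both controls for 3 of 9 members, the dim Lgals12 among them, beside 27.8% of all probe sets, a share near that of the whole array. Both clones stood below both controls for 1 of 9, Lgals7, beside 11.7%. After quantile normalization these counts were again 3 of 9, beside 19.2%, and 1 of 9, beside 21.3%.

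**Figure D1:**
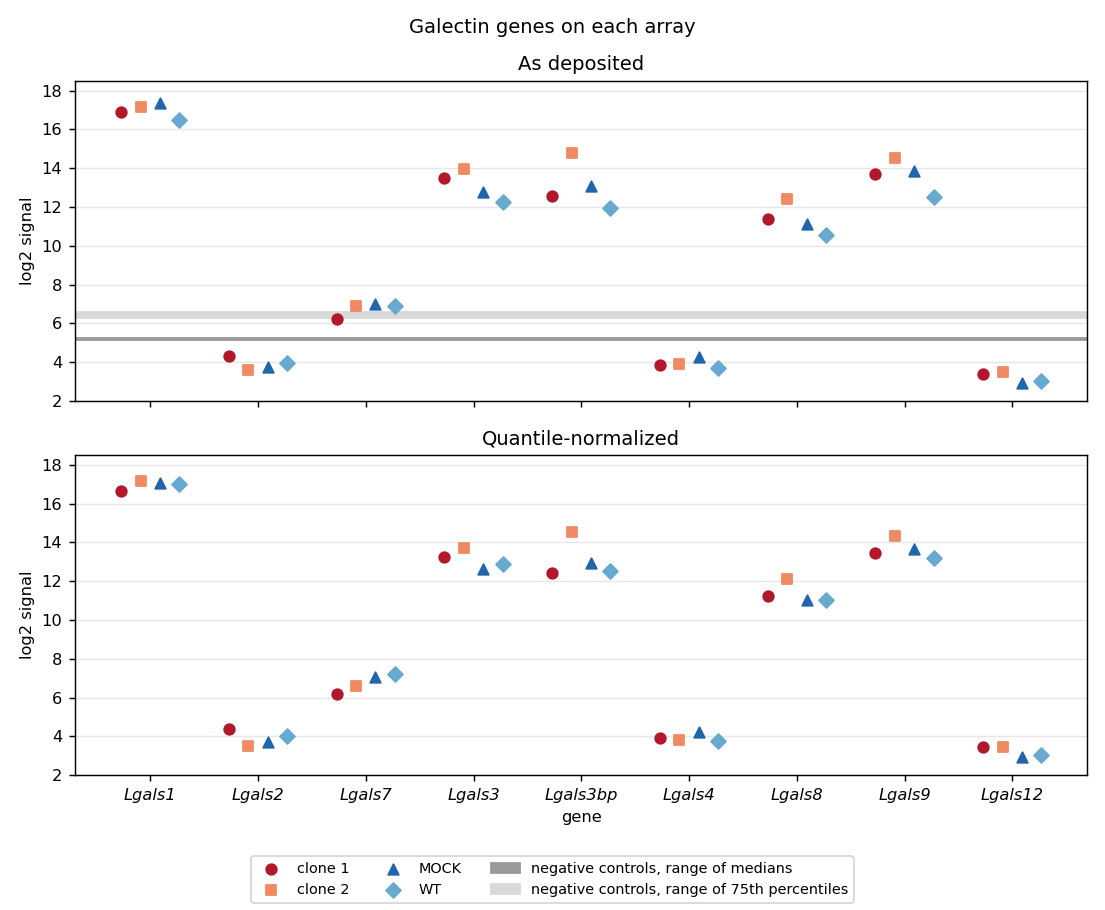
Log2 signal (vertical axis) of each galectin gene (horizontal axis) on each array, clone 1 and clone 2 to the left of MOCK and WT, as deposited (top) and quantile-normalized (bottom). Grey bands in the top panel span the medians and the 75th percentiles of the negative control features over the 4 arrays. Lgals3 and Lgals8 had both clones above both controls in both panels, Lgals3bp stood apart in clone 2 alone, and Lgals2, Lgals4 and Lgals12 lay under the lower band.

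Lgals3, the chimera galectin, was the member with the smallest limma p as deposited. After quantile normalization that member was Lgals7. The log2 signal of Lgals3 was 13.48 in clone 1 and 13.98 in clone 2, against 12.77 in MOCK and 12.28 in WT. Both clones were above both controls, and the clones differed by about as much as the controls did. The mean was 13.73 ± 0.36 in the knockout and 12.53 ± 0.35 in the control (SD, n = 2 each), 2.30-fold higher, a difference of 1.20 log2 units (SE 0.40, 95% interval 0.32 to 2.09, limma adjusted p = 0.403). After quantile normalization the signals were 13.27 and 13.70 in the clones, and 12.64 in MOCK and 12.91 in WT. The groups still did not overlap, and the difference was 0.71 log2 units with a 95% interval of -0.03 to 1.44 (limma adjusted p = 0.576).

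Lgals3bp separated the clones from each other instead. Its log2 signal was 12.59 in clone 1 and 14.77 in clone 2, against 13.08 in MOCK and 11.96 in WT. Clone 2 was the highest array and clone 1 lay between the controls, so the groups overlapped. The mean was 13.68 ± 1.54 in the knockout and 12.52 ± 0.79 in the control (SD, n = 2 each), a difference of 1.16 log2 units (SE 0.65, 95% interval -0.28 to 2.60, limma adjusted p = 0.661). After quantile normalization the signals were 12.43 in clone 1 and 14.54 in clone 2, against 12.93 in MOCK and 12.55 in WT. Clone 1 was then the lowest array of the 4, and clone 2 stood 2.11 log2 units above it. With clone 1 left out, limma called Lgals3bp higher in clone 2 at 2.25 log2 units (adjusted p = 0.0219, with a range of 0.0219 to 1.00 over 11 alternatives), where 2.16% of all probe sets were called higher. In that fit clone 2 is the only knockout array and is assumed to vary as the 2 controls do. Limma also draws the spread of the controls at this gene toward that of all probe sets. The call therefore rests in part on other genes.

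Among the tandem-repeat galectins, Lgals8 and Lgals9 gave clear signals. Galectin-8 recognises glycans exposed on damaged vesicles, and its gene had log2 signals of 11.39 in clone 1 and 12.40 in clone 2, against 11.12 in MOCK and 10.53 in WT. Both clones were above both controls, with clone 1 only a little above MOCK. The mean was 11.90 ± 0.72 in the knockout and 10.83 ± 0.42 in the control (SD, n = 2 each), 2.10-fold higher, a difference of 1.07 log2 units (SE 0.45, 95% interval 0.07 to 2.06, limma adjusted p = 0.539). After quantile normalization Lgals8 stood at 11.25 and 12.11 in the clones, and at 11.06 in MOCK and 11.04 in WT. The controls were then nearly equal, and the difference of 0.63 log2 units (95% interval -0.21 to 1.47, limma adjusted p = 0.647) came mostly from clone 2.

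Galectin-9 is a ligand of the T cell receptor Tim-3 and is known to be induced by interferons. Lgals9 had log2 signals of 13.69 in clone 1 and 14.53 in clone 2, against 13.86 in MOCK and 12.52 in WT. Clone 2 was the highest array and WT the lowest, with clone 1 and MOCK close together, so the groups overlapped. The mean was 14.11 ± 0.59 in the knockout and 13.19 ± 0.95 in the control (SD, n = 2 each), a difference of 0.92 log2 units (SE 0.51, 95% interval -0.20 to 2.03, limma adjusted p = 0.658). After quantile normalization it stood at 13.47 and 14.33 in the clones, and at 13.66 in MOCK and 13.18 in WT, a difference of 0.48 log2 units (95% interval -0.40 to 1.36, limma adjusted p = 0.741). The other tandem-repeat members were dim. Lgals4, a galectin of the gut lining, had signals of 3.86 and 3.90 in the clones, and of 4.24 in MOCK and 3.71 in WT. Lgals12, known from fat cells, had 3.38 and 3.50 in the clones, and 2.94 in MOCK and 3.01 in WT. No fold is given for dim genes.

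Lgals1 was the prototype galectin with a clear signal. Galectin-1 is secreted by many tumour cells and is known to trigger death of activated T cells. Its log2 signal was 16.90 in clone 1 and 17.15 in clone 2, against 17.37 in MOCK and 16.47 in WT. Both clones lay between the controls. The mean was 17.03 ± 0.17 in the knockout and 16.92 ± 0.64 in the control (SD, n = 2 each), a difference of 0.11 log2 units (SE 0.42, 95% interval -0.82 to 1.04, limma adjusted p = 0.964). The direction flipped with the scaling, to -0.13 after quantile normalization (95% interval -0.87 to 0.60), -0.027 with arrays centred on their medians and -0.31 with cyclic loess. Quantile normalization brought the controls to 17.06 in MOCK and 17.02 in WT, with 16.65 in clone 1 and 17.16 in clone 2. The RefSeq table also lists a pseudogene of Lgals1, and whether its RNA reaches this probe set was not tested.

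Lgals7, a galectin of stratified epithelia, had log2 signals of 6.22 in clone 1 and 6.88 in clone 2, against 6.99 in MOCK and 6.90 in WT. Both clones were below both controls, and clone 1 was near background. The difference was -0.40 log2 units (SE 0.40, 95% interval -1.27 to 0.48, limma adjusted p = 0.811). It was -0.75 after quantile normalization (95% interval -1.48 to -0.02, limma adjusted p = 0.543), with signals of 6.17 and 6.60 in the clones, and of 7.06 in MOCK and 7.22 in WT. Lgals2, a galectin of the intestine, was dim at 4.32 in clone 1 and 3.57 in clone 2, against 3.74 in MOCK and 3.94 in WT. The related genes Lgalsl and Grifin, which encode proteins with a galectin fold, both had higher clones than controls as deposited, an order that was lost after quantile normalization. Lgalsl stood at 7.90 and 7.20 in the clones, and at 7.14 in MOCK and 6.93 in WT, and Grifin, near background on every array, at 5.47 and 5.54, and at 5.46 in MOCK and 5.21 in WT.

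Set side by side as single arrays, which allow no test, the clones differed in how many galectins stood apart from the controls. In clone 2, Lgals3, Lgals3bp, Lgals8 and Lgals9 were at least 1 log2 unit above the mean of the controls. That was 4 of 9 members, beside 11.8% of all probe sets, dim ones included. The differences of these 4 genes were 1.46, 2.25, 1.57 and 1.34 log2 units in the same order. In clone 1 the count was 0 of 9, beside 6.31%, and the same 4 genes differed by 0.95, 0.07, 0.56 and 0.50 log2 units.

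After quantile normalization, 2 of 9 members remained at that distance in clone 2, Lgals3bp at 1.80 and Lgals8 at 1.06 log2 units, beside 5.41% of all probe sets, and 0 of 9 in clone 1 beside 3.94%. Lgals3 was then 0.49 log2 units above the controls for clone 1 and 0.92 for clone 2. Lgals9 was 0.06 and 0.91 above them, and Lgals3bp turned to -0.31 in clone 1. Clone 2 exceeded clone 1 by at least 1 log2 unit for Lgals3bp and Lgals8 as deposited, 2 of 9 beside 8.6%, and for Lgals3bp after quantile normalization, 1 of 9 beside 5.54%.

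The controls also differed from each other. MOCK minus WT was 1.34 log2 units for Lgals9, 1.12 for Lgals3bp, 0.90 for Lgals1, 0.59 for Lgals8 and 0.49 for Lgals3, so 2 of 9 members were at least 1 log2 unit apart, beside 8.79% of all probe sets. For Lgals9 this was as large as the distance of clone 2 from the controls. After quantile normalization 0 of 9 were that far apart, beside 1.85%, and the differences were 0.48 for Lgals9, 0.38 for Lgals3bp, 0.03 for Lgals1, 0.02 for Lgals8 and -0.27 for Lgals3. In no comparison was a member at least 1 log2 unit lower. The shares of all probe sets that were this much lower, as deposited and after quantile normalization, were 2.3% and 3.03% in clone 1, 1.91% and 4.54% in clone 2, 4.12% and 5.74% in clone 2 against clone 1, and 1.27% and 2.67% in MOCK against WT.

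**Figure D2:**
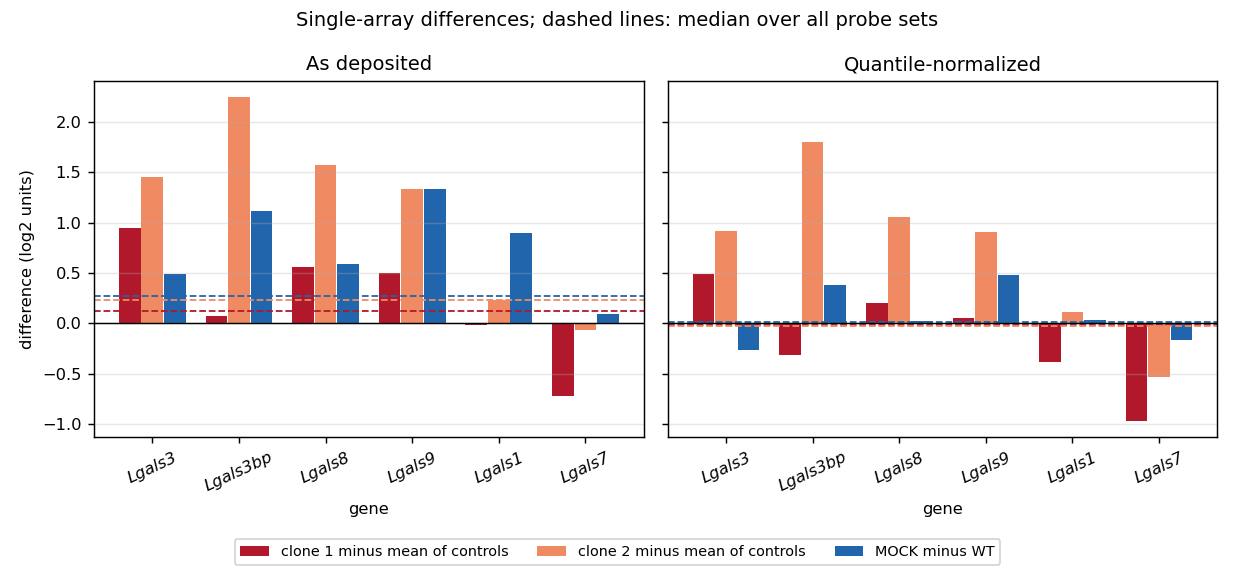
Difference in log2 units (vertical axis) for the 6 members that were not dim, as bars for clone 1 minus the mean of the controls, clone 2 minus the mean of the controls, and MOCK minus WT, each from single arrays with no error to show. Dashed lines give the median of the same difference over all probe sets. The clone 2 bar of Lgals3bp reaches 2.25 as deposited and 1.80 after quantile normalization, while the MOCK minus WT bars of Lgals9 and Lgals3bp are 1.34 and 1.12 as deposited.

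The upstream sequences of the 4 members that were highest in clone 2 are shown because interferons are known to induce Lgals3bp and Lgals9, and interferon response genes were high in the same clone. RefSeq promoter windows of 300 bases, 250 before and 50 after the start, were matched for 7 of the 9 members, all but Lgals1 and Lgals12, from build GRCm38.p6. Each sequence below gives the 100 bases before the start, 5′ to 3′ on the gene's strand. Capitals mark, on either strand, AANNGAAA, the core bound by interferon regulatory factors, the interferon-stimulated response element, which contains that core and is made of 2 GAAA blocks spaced by any 2 bases, and GGGCGG, the GC box.
Lgals3bp, chr11:118401960-118402059, minus strand: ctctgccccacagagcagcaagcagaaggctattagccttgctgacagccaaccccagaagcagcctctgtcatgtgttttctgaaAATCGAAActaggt
Lgals9, chr11:78984925-78985024, minus strand: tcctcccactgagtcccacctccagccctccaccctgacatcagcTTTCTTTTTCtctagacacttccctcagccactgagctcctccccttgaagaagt
Lgals8, chr13:12461739-12461838, minus strand: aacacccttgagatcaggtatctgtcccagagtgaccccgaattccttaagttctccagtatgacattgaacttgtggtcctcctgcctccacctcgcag
Lgals3, chr14:47373760-47373859, plus strand: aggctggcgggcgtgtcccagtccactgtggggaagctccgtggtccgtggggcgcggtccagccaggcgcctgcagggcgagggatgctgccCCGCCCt

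Lgals3bp held 1 match to AANNGAAA, at bases -14 to -7, and 0 to the response element. Lgals9 held 3 matches to AANNGAAA and 2 to the response element. The 2 lie on the opposite strand, 1 at bases -55 to -46 and 1 after the start at bases 16 to 25, which is shown in capitals within this stretch.
Lgals9, chr11:78984892-78984917, minus strand: agctgtggTTTCTGTTTCctagctca
Of 32817 RefSeq windows of the same length, 3.43% held the response element and 23.9% held AANNGAAA. Among the 17 interferon response genes with a window, 10 held the response element and 13 held AANNGAAA in any of their windows. These are counts of genes, while the shares count single windows, so the units differ. Lgals8 held 0 matches to any of these motifs, and Lgals3 held 2 GC boxes, a motif found in 35.6% of windows. TGANTCA, an AP-1 site, had 0 matches in the 7 windows, beside 7.81% of all windows. TTCNNNGAA, the interferon gamma-activated site, also had 0 matches in them, beside 8.29%. These matches describe letters in the reference sequence only.

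The interferon response list, whose windows were searched above for the response element and AANNGAAA, had 19 genes measured. All 19 had a mean difference above 0, beside 65.1% of all probe sets, and 0 passed the limma test, beside 0.0405%. Both clones were above both controls for 11 of 19, beside 27.8%, and for 9 after quantile normalization, beside 19.2%. Clone 2 exceeded the controls by a list median of 3.29 log2 units and clone 1 by 0.25, while MOCK exceeded WT by 0.40. Quantile-normalized, the medians were 2.77 for clone 2 and -0.02 for clone 1, with -0.06 for MOCK minus WT. Isg15, an interferon-induced ubiquitin-like modifier, had signals of 7.43 in clone 1 and 9.61 in clone 2, against 7.78 in MOCK and 6.58 in WT. It is shown because it was among the genes nearest in pattern to Lgals3bp. The list's members with the largest differences, Oasl1, Rsad2, Cxcl10 and Usp18, had clone 1 above both controls instead. Rsad2, an antiviral enzyme, stood at 8.77 and 12.43 in the clones, and at 7.85 in MOCK and 7.06 in WT. Cxcl10, a chemokine for T cells, stood at 14.49 and 17.08 in the clones, and at 13.65 in MOCK and 12.58 in WT. Whether this list has a part in the galectin levels was not tested.

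The 5 members with clear signals differed in pattern over the 4 arrays. Likeness was measured as the root mean square distance between log2 signals after each gene was centred on its own mean, so a small value means a like pattern over these 4 arrays only. Lgals3 and Lgals8 were the closest pair of members, at 0.19 log2 units as deposited, and Lgals8 and Lgals9 followed at 0.28. Lgals1 and Lgals3bp were the farthest apart, at 0.86. After quantile normalization Lgals8 and Lgals9 were closest, at 0.18, with Lgals3 and Lgals8 at 0.19.

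Among 7704 other named genes with clear signals on all arrays, the nearest to Lgals3 were Snx30, a sorting nexin, at 0.04 log2 units, the transcription factor Klf4 at 0.05 and Arhgef25 at 0.06. Klf4 had signals of 12.26 and 12.83 in the clones, and of 11.61 in MOCK and 11.19 in WT. The nearest to Lgals3bp were the small nucleolar RNA gene Snord12 at 0.08, Isg15 at 0.10 and Gss, which encodes glutathione synthetase, at 0.13. For Lgals8 they were Cox10, needed for heme A synthesis, Tmem234 and C9orf72, at 0.03, 0.03 and 0.05. For Lgals9 they were the phosphatase gene Ptpn12, Eral1 and Tmem268, at 0.05, 0.06 and 0.07. For Lgals1 they were Ybx3, Prr14 and Fanca, at 0.03, 0.04 and 0.04. These distances are as deposited, and several were larger after quantile normalization, such as 0.24 for Isg15, 0.21 for Gss, 0.15 for Snx30 and 0.21 for Arhgef25. All genes share the overall scale of the 4 arrays, so the distances are a description only.

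The members lie on chromosomes 7, 11, 13, 14, 15 and 19 in the RefSeq table. Lgals4 and Lgals7 are next to each other on chromosome 7 among measured genes. The 3 nearest measured genes on each side of every member, 6 in all, held 0 called genes for any of the 9. Over all probe sets, 0.0405% were called. Around Lgals3, all 6 neighbours had differences above 0 as deposited, beside 65.1% of all probe sets. Atg14, dim in both controls, was among them. Quantile-normalized, Socs4 (-0.02) and Fbxo34 (-0.12) fell below 0, where 48.3% of all probe sets were above 0. The median of the 6 was 0.65 log2 units as deposited and 0.19 after quantile normalization. Around Lgals3bp the median was 0.09 and after quantile normalization 0.02, around Lgals8 0.30 and 0.04, and around Lgals9 0.40 and -0.0033. The neighbours of Lgals3, Lgals3bp, Lgals8 and Lgals9 thus had smaller medians than those genes' own differences. These members had the largest differences of the set, so lower medians say little about the regions. As deposited, Ero1b at 1.57 and Gpr137b-ps at 1.16 log2 units lay above Lgals8, at 1.07. The dim Lyrm9 matched Lgals9, both at 0.92. The other neighbours of these members were lower than the member itself. Whether neighbours and members share a cause was not tested.

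The enzymes that build galectin ligands went both ways. Of 17 measured branching and lactosamine enzymes, 8 had differences above 0 and 9 below, beside 65.1% of all probe sets above 0. The 17 include Mgat5 itself, and 4 of them were dim on every array. After quantile normalization 6 were above 0 and 11 below, beside 48.3% above 0. Both clones were above both controls for 7, beside 27.8% of all probe sets, and below both for 4, beside 11.7%. These counts were 5, beside 19.2%, and 7, beside 21.3%, after quantile normalization. Of the 17, 0 passed the limma test, beside 0.0405% of all probe sets. Their median was -0.07 log2 units, or -0.25 after quantile normalization. B4galt1, which adds the galactose that galectins bind, had signals of 13.34 in clone 1 and 12.76 in clone 2, against 11.65 in MOCK and 11.04 in WT (1.71 log2 units, limma adjusted p = 0.228). B4galt2, a second such enzyme, stood at 9.61 and 9.27 in the clones, and at 8.40 in MOCK and 8.37 in WT. St6gal1, whose alpha-2,6 sialic acid blocks binding of galectin-1, was dim in clone 1 and both controls and near background in clone 2, with 5.08 in clone 1 and 5.44 in clone 2, against 4.55 in MOCK and 4.42 in WT.

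Glycoproteins known to bind galectins stayed near the shift of the whole array. Of 28 measured, 20 had differences above 0, beside 65.1% of all probe sets, and 0 passed the limma test, beside 0.0405%. Their median was 0.33 log2 units, or -0.06 after quantile normalization. Lamp2, a lysosomal membrane glycoprotein, had signals of 15.98 in clone 1 and 16.69 in clone 2, against 15.80 in MOCK and 14.69 in WT. Fn1, which encodes fibronectin, stood at 15.34 and 16.10 in the clones, and at 14.81 in MOCK and 14.39 in WT. The integrin gene Itga6 stood at 9.94 and 9.16, and at 8.88 in MOCK and 7.60 in WT. For Fn1 and Itga6 the groups overlapped after quantile normalization. Alcam, an adhesion molecule bound by galectin-8, was highest in clone 1 at 10.68, with 8.86 in clone 2, 7.95 in MOCK and 8.89 in WT.

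Genes of the response to damaged lysosomes, which galectins help to start, had 19 of 22 differences above 0. That compares with 65.1% of all probe sets, dim ones included, and the count was 15 after quantile normalization, beside 48.3%. Of the 22, 0 passed the limma test, beside 0.0405% of all probe sets. Their median was 0.56 log2 units, or 0.15 after quantile normalization. Both clones were above both controls for 10 of 22, beside 27.8%, and for 8 after quantile normalization, beside 19.2%. Calcoco1, an autophagy receptor, had signals of 8.82 in clone 1 and 10.13 in clone 2, against 7.88 in MOCK and 8.01 in WT. Vcp, the ATPase that extracts proteins from damaged membranes, stood at 13.61 and 13.10 in the clones, and at 12.10 in MOCK and 11.88 in WT. Tax1bp1, an autophagy receptor, stood at 13.35 and 13.95, and at 12.81 in MOCK and 12.17 in WT. Gabarapl2, an autophagosome protein, stood at 8.95 and 8.77, and at 8.03 in MOCK and 7.50 in WT.

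Relatives of Lgals3bp with a scavenger receptor cysteine-rich domain were mostly dim, 7 of 12 on every array. Of the 12, 8 had differences above 0, beside 65.1% of all probe sets, a share near that of the whole array. After quantile normalization 7 did, beside 48.3%. The limma test was passed by 0 of the 12, beside 0.0405% of all probe sets. The list's median was 0.08 log2 units above the controls for clone 1 and 0.61 for clone 2, and 0.12 and 0.51 after quantile normalization. Scara5, a ferritin receptor, had signals of 7.12 in clone 1 and 9.66 in clone 2, against 6.08 in MOCK and 5.20 in WT (limma adjusted p = 0.257). Both controls were near background for it. Loxl4, a lysyl oxidase, stood at 7.98 and 8.63 in the clones, and at 7.59 in MOCK and 6.99 in WT. Ssc5d stood at 4.97 and 5.98 in the clones, and at 5.06 in MOCK and 3.70 in WT. It was near background in clone 2 and dim on the other arrays. Cd5l, dim on every array, stood at 3.55 and 4.15 in the clones, and at 4.89 in MOCK and 4.95 in WT. Of 7 receptors through which galectins act on immune cells, 0 were above the 75th percentile of the negative controls on all arrays. Of the 7, 0 passed the limma test, beside 0.0405% of all probe sets. Havcr2, which encodes Tim-3, stood at 4.50 and 6.14 in the clones, and at 5.54 in MOCK and 4.59 in WT. Spn, which encodes CD43 and was dim in clone 1 and both controls, stood at 5.15 and 5.54 in the clones, and at 3.84 in MOCK and 3.73 in WT.

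**Figure D3:**
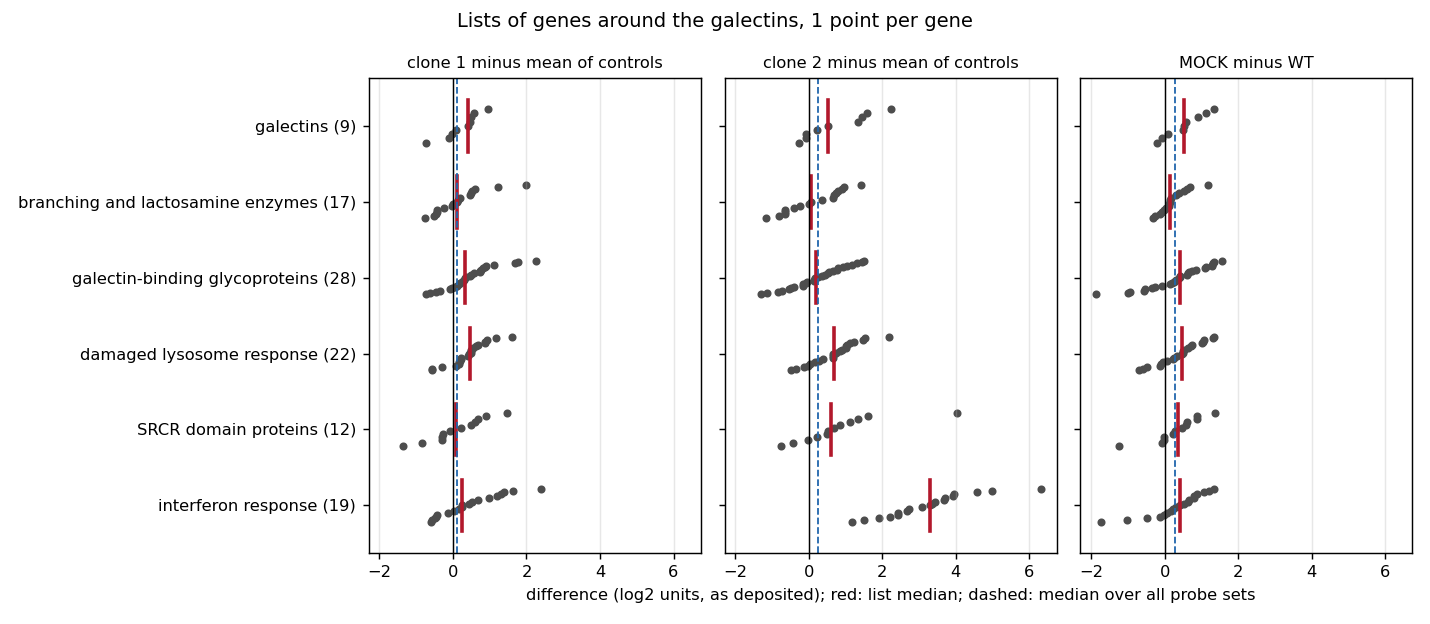
Difference in log2 units as deposited (horizontal axis) for every measured gene of each list (rows, number of genes in brackets), for clone 1 minus the mean of the controls (left), clone 2 minus the mean of the controls (middle) and MOCK minus WT (right). Red bars are list medians and dashed lines the medians over all probe sets. The interferon response list has a median of 3.29 in clone 2 and 0.25 in clone 1, and the galectins have 0.53 and 0.41, with 0.53 for MOCK minus WT. The galectin medians are values of dim genes, Lgals12 in both clones and Lgals4 for MOCK minus WT, so they do not describe the members with clear signals.

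**Figure D4:**
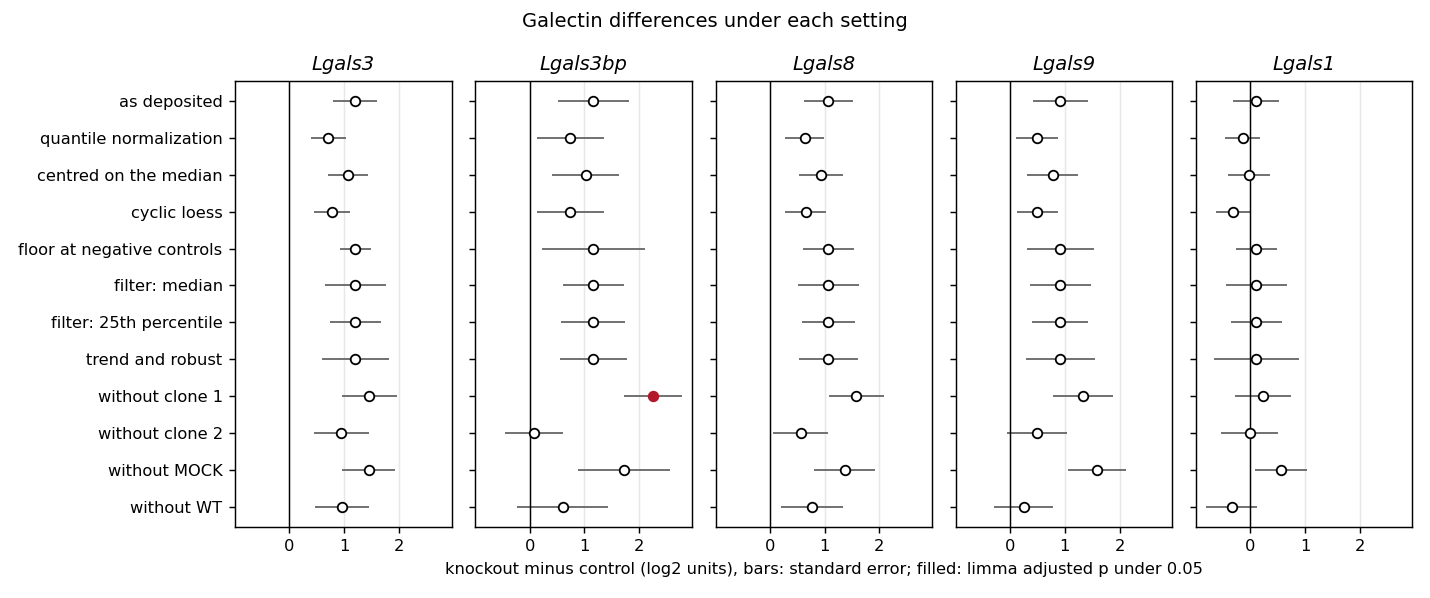
Knockout minus control in log2 units (horizontal axis) for 5 galectin genes under each setting (rows), with the standard error of the limma fit as bars and filled points where the adjusted p was under 0.05. The filters, the floor and trend and robust leave the differences of these genes as deposited. Lgals3, Lgals3bp, Lgals8 and Lgals9 stayed above 0 in every setting drawn, Lgals1 lay on both sides of 0, and the filled point is Lgals3bp without clone 1, at 2.25.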

How the data were processed

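Total RNA from 4 MC38 samples was labelled with biotin and read on the Clariom S mouse array, per the labels' protocols. The authors used the Transcriptome Analysis Console, per the submitters' processing notes. The deposited values are log2 signals, with the scale read from their range. For summarisation, background correction and genome build, nothing is stated in the labels or files. Of 28846 features, 6640 control features were left out, which left 22206 probe sets, unfiltered. Platform symbols were updated through Entrez identifiers to RefSeq GRCm38.p6, and 19572 probe sets had 1 symbol, 0 several and 2634 none. The probe set with the highest mean stood for a gene. Knockout minus control was fitted with limma 3.58.1 (R 4.3.3), 2 arrays per group, with Benjamini-Hochberg adjustment over all probe sets at 0.05. The number of arrays limits the precision. Scripts were tested on simulated data. Members, lists and the naming rule (up to 4 genes per list with the largest difference, and the 3 genes nearest in pattern to each clear galectin) were chosen with earlier results of these data known. Genomic neighbours and cyclic loess were added after the values were seen. Alternatives were other scalings, filters, a floor, another variance model and leaving out each array.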

Additional observations from a re-analysis of the deposited data

How the results depend on the processing

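Both filters, the floor and the other variance model (trend and robust) left the differences of the members that were not dim as in the main fit. Only the other scalings and leaving out an array could turn a direction. The differences of Lgals3, Lgals3bp, Lgals8, Lgals9 and Lgals7 kept their direction under all 11 alternatives, from 0.71 to 1.46, 0.07 to 2.25, 0.56 to 1.57, 0.25 to 1.59 and -0.75 to -0.07 log2 units. The call of Lgals3bp without clone 1 was the only one among them. Lgals1 reversed to -0.13 after quantile normalization, -0.027 with arrays centred on the median, -0.31 with cyclic loess, -0.01 without clone 2 and -0.34 without WT. Single-array differences that reversed with cyclic loess were those of Lgals1 in clone 2 (-0.10), Lgals3bp in clone 1 (-0.33) and MOCK minus WT for Lgals1 (-0.35), Lgals3 (-0.34), Lgals7 (-0.15) and Lgals8 (-0.052). With quantile normalization they were Lgals3bp in clone 1 (-0.31) and MOCK minus WT for Lgals3 (-0.27) and Lgals7 (-0.16), the last also with centring (-0.033). With an array left out, the members with clones above controls numbered 3 to 7, under a looser rule because fewer arrays had to be in order. They numbered 2 with either filter and with the floor, where the dim Lgals12 no longer counted. The median difference of the galectins stayed above 0, from 0.11 to 0.99 log2 units over the alternatives. The probe sets called, 9 in the main fit, numbered 1 after quantile normalization, 1 with cyclic loess, 0 with the floor at the negative controls, 196 and 125 when probe sets under the median or the 25th percentile were dropped, 340 with trend and robust, and 0 to 529 with an array left out. With 0 called under the floor, limma had 1769 at an unadjusted p under 0.05, and 832 without WT. For these changes the cause was not tested. No member had more than 1 probe set, so averaging probe sets was not run. No paired analysis was possible because the labels number the clones only and pair no clone with a control. Dim genes carry no difference, and for Lgals7 the signal over background limits what can be read.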
